A study of Mus musculus with 2 samples.

Results

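CC chemokines are small secreted proteins that attract leukocytes. The genes described here are Ccl2, Ccl3, Ccl4, Ccl5, Ccl6, Ccl7, Ccl9, Ccl17, Ccl22 and Ccl24. They were taken by name, as a list chosen with earlier results of these data known. They are 10 of 55487 genes in the count table. All 10 were present, and 9 of them had 50 or more counts in at least 1 library. Ccl17 did not reach that level.

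Small peritoneal macrophages, cells of the abdominal cavity that derive largely from monocytes, were sorted from male SWISS mice, an outbred stock, aged 5 weeks. In the LPS+LCC-12 group, mice received 20 mg/kg lipopolysaccharide (LPS) of Escherichia coli into the peritoneum and, 6 h later, 0.3 mg/kg LCC-12 by the same route. LCC-12 is a dimer of metformin known to act on mitochondrial copper. In the LPS group, mice received the same dose of LPS alone. All mice had a subcutaneous injection of 30 mL/kg saline at 6 h, and their cells were taken at 22 h after LPS. Each group was 1 library of pooled cells, 66967 cells of 8 mice for LPS+LCC-12 and 102283 cells of 7 mice for LPS. No animal without LPS was analysed here, so an induction by LPS itself cannot be read from these libraries.

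A single library per group allows no test. Every difference below is between these libraries, has no replicate check and was not set against variation between mice. In a bulk library, fewer cells of a type and less RNA per cell cannot be told apart. The libraries held 47721888 counts for LPS+LCC-12 and 50618409 for LPS. Levels are given as CPM, the count divided by the scaled library size and expressed per 1e6 counts. The log2 ratio is LPS+LCC-12 over LPS, with an exact 95% interval that covers counting error only. The rule for calling a gene higher or lower was a difference of 2-fold or more together with a count of at least 50 in whichever library had more.

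CC chemokines bind receptors of the CCR family, which are coupled to G proteins, and form gradients that cells follow into tissue. Ccl2, Ccl7 and Ccl12 attract monocytes through Ccr2. Ccl3, Ccl4 and Ccl5 attract monocytes, T cells and NK cells, and Ccl6 and Ccl9 are ligands of Ccr1 that occur in mice. Ccl17 and Ccl22 act through Ccr4, and Ccl24, an eotaxin, acts through Ccr3 on eosinophils. In macrophages, LPS is known to induce Ccl2, Ccl3, Ccl4, Ccl5 and Ccl7, whereas Ccl17, Ccl22 and Ccl24 are known to respond to interleukin-4.

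The family is named for a pair of adjacent cysteines. The coding sequence around that pair is shown for 9 of them because it is the feature that the members share. Sequences are from GENCODE M21, written 5′ to 3′ on the coding strand, and the capitals mark the adjacent cysteine codons.
Ccl2: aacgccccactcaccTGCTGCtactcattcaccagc
Ccl7: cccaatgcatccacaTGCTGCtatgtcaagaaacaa
Ccl4: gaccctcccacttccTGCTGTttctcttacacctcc
Ccl5: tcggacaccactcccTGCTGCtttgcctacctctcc
Ccl6: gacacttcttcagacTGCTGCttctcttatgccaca
Ccl9: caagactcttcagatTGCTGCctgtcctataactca
Ccl17: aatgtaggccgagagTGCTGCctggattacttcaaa
Ccl22: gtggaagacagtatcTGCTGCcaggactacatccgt
Ccl24: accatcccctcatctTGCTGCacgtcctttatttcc
In Ccl4 the second codon of the pair was TGT, and in the other 8 genes shown both codons were TGC. The pair began at codon 33 to 43 in most of them, and at codon 50 in Ccl6 and 57 in Ccl9, which carry a longer stretch before it. Over 66 pairs of 12 genes, the 10 members with Ccl8 and Ccl12, coding sequences were 38.0% to 66.7% identical, with a median of 48.5%. Ccl3 and Ccl4 were the closest pair, and Ccl6 and Ccl9 followed at 64.8%. The longest stretch that any pair of their longest coding transcripts shared exactly was 25 bases, between Ccl6 and Ccl9, against reads of 100 bases.

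The members fell on both sides of 0. Ccl24, Ccl22 and Ccl6 were at least 2-fold higher in the LPS+LCC-12 library, and Ccl9 and Ccl5 were 1.83-fold and 1.75-fold higher. Ccl2, Ccl7, Ccl4 and Ccl3 were 1.82-fold to 1.93-fold lower, all inside the 2-fold limit. By the 2-fold rule, 3 of the 9 members with 50 or more counts were higher and 0 were lower, where 4.01% of 13482 genes were higher and 6.65% were lower. With a limit of 1.5-fold, 5 were higher and 4 were lower, where 9.67% and 13.3% of all genes were. The median log2 ratio was 0.81 over these 9 members and 0.02 over all 13482 genes. That median is the value of Ccl5, and no member lay between -0.87 and 0.81. Ccl25, a CC chemokine outside the 10, did, at 0.05. Because the members were chosen with earlier results known, the shares of all genes are given for description only.

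**Figure D1:**
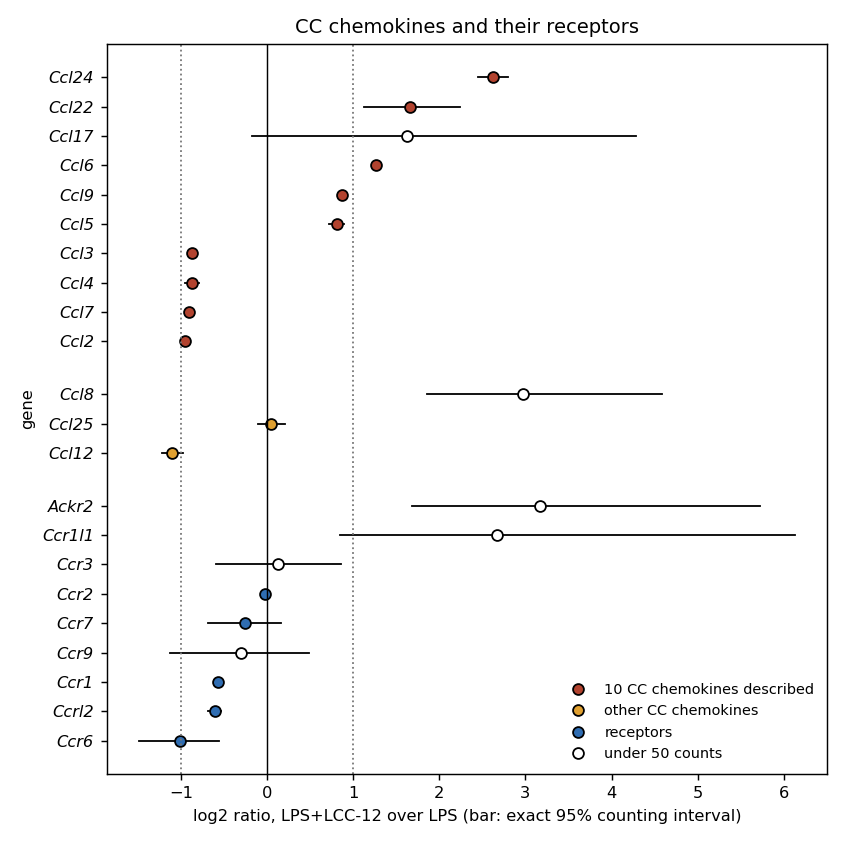
Log2 ratio of LPS+LCC-12 over LPS (x axis) for CC chemokine genes and their receptors (y axis) that reached 10 counts in either library. Points are single libraries set against each other, bars are exact 95% counting intervals, dotted lines mark 2-fold, and open points have under 50 counts. Among genes with 50 or more counts, Ccl24, Ccl22 and Ccl6 lie above 2-fold, while Ccl2, Ccl7, Ccl3 and Ccl4 lie together just inside it on the other side. Ccl12 and Ccr6 lie just past 2-fold on that lower side. The open points of Ackr2, Ccl8, Ccr1l1 and Ccl17 also lie above 2-fold.

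Ccl2 and Ccl7, ligands of Ccr2, had log2 ratios below 0 and inside the 2-fold limit. Ccl2 had 13676 counts (283 CPM) in the LPS+LCC-12 library and 27226 counts (545 CPM) in the LPS library. This was 1.93-fold lower, a log2 ratio of -0.95 (-0.98 to -0.92). Ccl7, the neighbour of Ccl2 on chromosome 11, had 5625 counts (116 CPM) with LPS+LCC-12 and 10882 counts (218 CPM) with LPS, a log2 ratio of -0.91 (-0.95 to -0.86). Both were lower by nearly the same factor. The library of LPS+LCC-12 held 2.43 counts of Ccl2 per count of Ccl7 and the LPS library 2.50, a quotient of 0.972 (0.935 to 1.01). Such a ratio within a library needs no scaling, and its interval is a normal approximation on the log scale. Ccl12, a Ccr2 ligand outside the 10, had 798 counts with LPS+LCC-12 and 1766 with LPS, and its log2 ratio of -1.10 (-1.22 to -0.98) was past 2-fold. In both libraries it was far below Ccl2, at 30.7 RPKM with LPS+LCC-12, where RPKM is the CPM per kilobase of exon.

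Among the inflammatory chemokines Ccl3, Ccl4 and Ccl5, the first pair was lower and Ccl5 was higher. Ccl3 had 5905 counts (122 CPM) with LPS+LCC-12 and 11126 counts (223 CPM) with LPS, a log2 ratio of -0.87 (-0.91 to -0.82). Ccl4 had 1881 counts (38.9 CPM) with LPS+LCC-12 and 3550 counts (71.1 CPM) with LPS, a log2 ratio of -0.87 (-0.95 to -0.79). Ccl3 and Ccl4 thus kept the same proportion, 3.14 counts of Ccl3 per count of Ccl4 with LPS+LCC-12 and 3.13 with LPS, a quotient of 1.00 (0.939 to 1.07). Ccl5, also a product of activated T cells and NK cells, had 2770 counts (57.3 CPM) with LPS+LCC-12 and 1633 counts (32.7 CPM) with LPS. Its log2 ratio was 0.81 (0.72 to 0.90), or 1.75-fold higher. There were 0.679 counts of Ccl4 per count of Ccl5 with LPS+LCC-12 and 2.17 with LPS. Summed over 6 genes each, T cell markers were at 1.86 CPM with LPS+LCC-12 and 3.68 CPM with LPS, and NK cell markers at 1.98 and 2.74 CPM. Only 1 gene of each list had 50 or more counts. The NK cell genes also differed in direction: Gzmb had 27 counts with LPS+LCC-12 and 72 with LPS, and Gzma 42 and 24.

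Ccl6 and Ccl9 had the most counts of the 10 genes in both libraries, and Ccl6 was past 2-fold. Ccl6 had 170097 counts (3517 CPM) with LPS+LCC-12 and 73123 counts (1464 CPM) with LPS. It was 2.40-fold higher, a log2 ratio of 1.26 (1.25 to 1.28). By RPKM it ranked 13 among all genes with LPS+LCC-12 and 30 with LPS. Ccl9 had 55322 counts (1144 CPM) with LPS+LCC-12 and 31156 counts (624 CPM) with LPS, a log2 ratio of 0.87 (0.85 to 0.89). The difference was larger for Ccl6: per count of Ccl9 there were 3.07 counts of Ccl6 with LPS+LCC-12 and 2.35 with LPS, a quotient of 1.31 (1.29 to 1.33). E230016K23Rik, an uncharacterised transcript, overlaps Ccl6 on the opposite strand and had 763 counts with LPS+LCC-12 and 177 with LPS. Whether the authors' counting used strand is not given in the sources used here, so reads of the overlap could belong to either gene. Its counts were under 1% as many as those of Ccl6 in both libraries.

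Of the members known to respond to interleukin-4, Ccl24 and Ccl22 had larger ratios than Ccl6, at lower levels. Ccl24 had 1805 counts (37.3 CPM) with LPS+LCC-12 and 303 counts (6.07 CPM) with LPS. It was 6.14-fold higher, a log2 ratio of 2.62 (2.44 to 2.80), at percentile 99.7 of the 13482 genes. Ccl22 had 117 counts (2.42 CPM) with LPS+LCC-12 and 38 counts (0.761 CPM) with LPS, a log2 ratio of 1.66 (1.13 to 2.24). Ccl22 was therefore 3.15-fold higher, with an interval that begins above 2-fold. Ccl17 had 10 counts with LPS+LCC-12 and 3 with LPS, and its log2 ratio of 1.63 had an interval of -0.17 to 4.28, so no difference was detectable at this depth. With 5 added counts the log2 ratio of Ccl17 was 0.93. Per count of Ccl24 there were 7.58 counts of Ccl2 with LPS+LCC-12 and 89.9 with LPS.

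**Figure D2:**
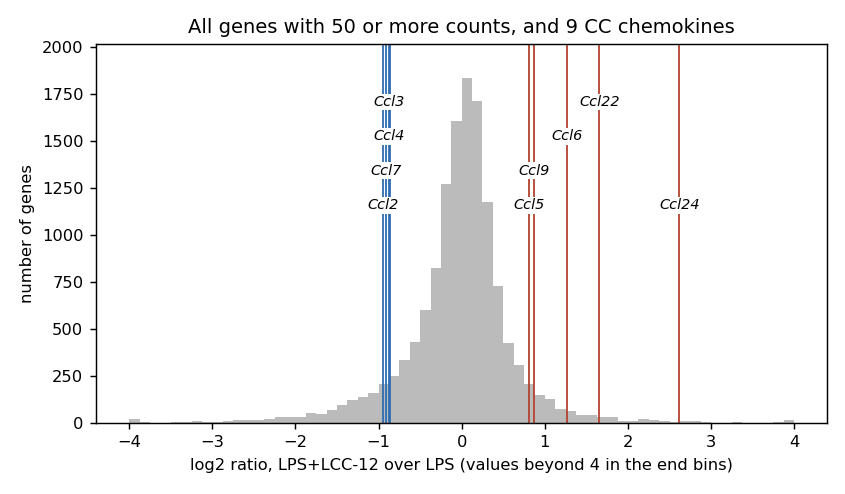
Histogram of the log2 ratio of LPS+LCC-12 over LPS (x axis) for 13482 genes with 50 or more counts (y axis, number of genes), with vertical lines at 9 CC chemokine genes. Ccl2, Ccl7, Ccl4 and Ccl3 sit between percentiles 7.28 and 8.29, and Ccl5, Ccl9, Ccl6, Ccl22 and Ccl24 between percentiles 94.3 and 99.7.

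Per length, the order of the members differed between the libraries. With LPS+LCC-12, Ccl6 was highest at 1959 RPKM, followed by Ccl9 at 376, Ccl2 at 248, Ccl3 at 159 and Ccl7 at 145 RPKM. Ccl5 and Ccl4 came next at 59.7 and 58.9 RPKM, with counting intervals that overlap, and then Ccl24 at 28.8, Ccl22 at 1.04 and Ccl17 at 0.402 RPKM. With LPS, Ccl6 was again highest at 816 RPKM, but Ccl2 at 479, Ccl3 at 291 and Ccl7 at 272 RPKM stood above Ccl9 at 205 RPKM. Ccl4 at 108 RPKM stood above Ccl5 at 34.1, and Ccl24 was at 4.69 RPKM. Ccl22 at 0.327 and Ccl17 at 0.117 RPKM had overlapping intervals in the LPS library. These lengths are merged exons, which for Ccl2, Ccl5, Ccl6, Ccl9 and Ccl22 are longer than the longest coding transcript. For Ccl5 the lengths were 960 and 532 bases. With the longest coding transcript, a choice made after seeing the data, the order was the same in both libraries, but Ccl5 at 108 RPKM was apart from Ccl4 at 58.9 with LPS+LCC-12.

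**Figure D3:**
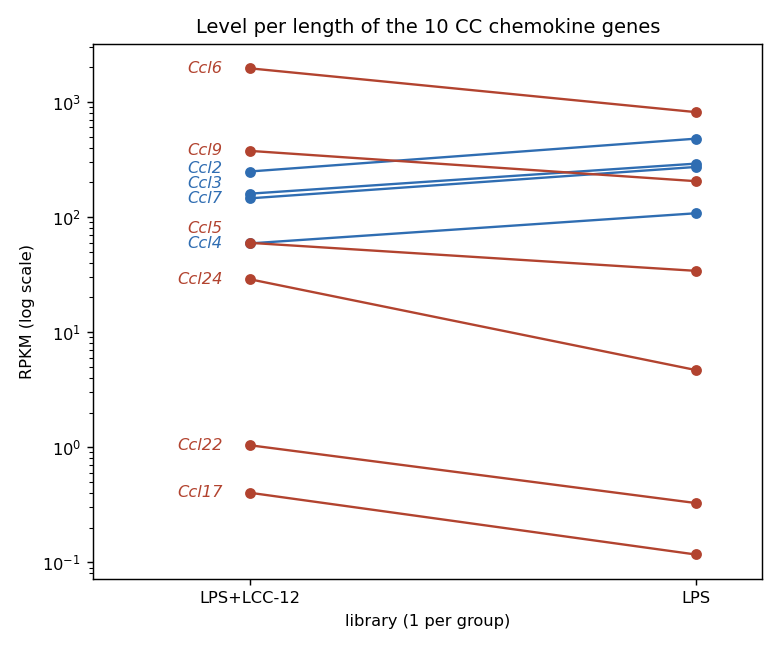
Level in RPKM (y axis, log scale) of the 10 CC chemokine genes in the LPS+LCC-12 library (left) and the LPS library (right), each point 1 library and lines joining the same gene. Red lines, Ccl6, Ccl9, Ccl5, Ccl24, Ccl22 and Ccl17, are higher with LPS+LCC-12, blue lines, Ccl2, Ccl3, Ccl7 and Ccl4, are lower, and the lines of Ccl9 and Ccl2 cross.

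The summed counts of the 10 genes made up 0.539% of the LPS+LCC-12 library (0.537 to 0.541) and 0.314% of the LPS library (0.313 to 0.316). Ccl6 accounted for most of that gap. Without Ccl6, the other members took 0.183% of counts with LPS+LCC-12 and 0.170% with LPS. Those members differed in both directions, so this small gap does not mean that each was alike. Ccl9 had 55322 counts with LPS+LCC-12 and 31156 with LPS, and Ccl2 had 13676 and 27226. Within the sum of all 10 genes, Ccl6 had a share of 66.1% with LPS+LCC-12 and 46.0% with LPS. Ccl2 had a share of 5.32% with LPS+LCC-12 and 17.1% with LPS. The share of Ccl9 was 21.5% with LPS+LCC-12 and 19.6% with LPS, and that of Ccl5 was 1.08% and 1.03%. A share falls when another member rises, so these values describe the mixture and not each gene. Counts were not divided by length here, and longer genes take larger shares.

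**Figure D4:**
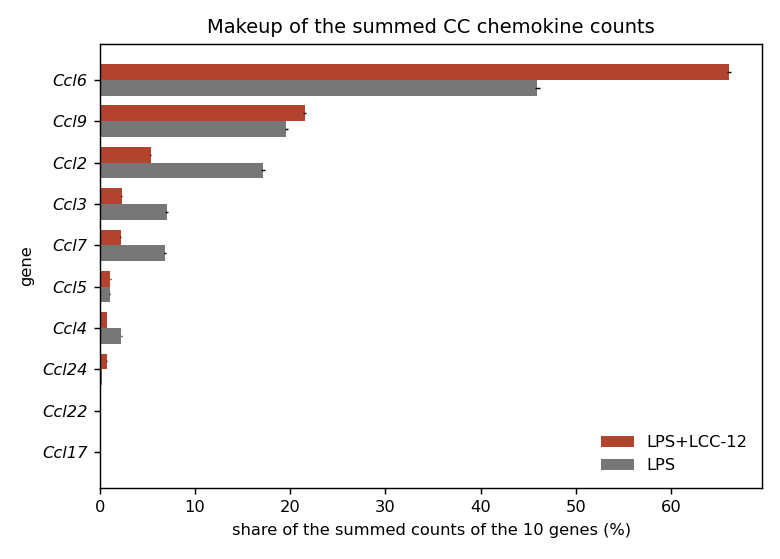
Share of the summed counts of the 10 CC chemokine genes (x axis, percent) taken by each gene (y axis) in the LPS+LCC-12 library (red) and the LPS library (grey), with exact binomial 95% intervals. Ccl6 takes 66.1% with LPS+LCC-12 and 46.0% with LPS, and Ccl2 takes 5.32% and 17.1%.

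Of the 10 genes, 7 lie on chromosome 11 of GRCm38, in a pair of clusters. The first cluster starts with Ccl2 (82035571 to 82037453) and Ccl7 (82045712 to 82047525), both on the plus strand, and goes on with Ccl11, Ccl12, Ccl8 and Ccl1. Its detected genes did not all differ in the same direction. Ccl2, Ccl7 and Ccl12 were lower with LPS+LCC-12, whereas Ccl8, a ligand of Ccr8 in mice, had 49 counts with LPS+LCC-12 and 6 with LPS. The log2 ratio of Ccl8 was 2.97 (1.85 to 4.59), and it lies 1 count under the minimum. Ccl11 and Ccl1 had 0 counts in both libraries, which allows up to 0.0620 CPM with LPS+LCC-12 and 0.0601 CPM with LPS (3 counts).

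The second cluster spans 139 kb and holds Ccl5 (83525778 to 83530518), Ccl9 (83572919 to 83578636), Ccl6 (83587882 to 83593087), Ccl3 (83647844 to 83649355) and Ccl4 (83662584 to 83664683), in that order. Ccl4 is on the plus strand and the others are on the minus strand. The direction changed once along it: Ccl5, Ccl9 and Ccl6 were higher with LPS+LCC-12, and the adjacent Ccl3 and Ccl4 were lower. Between Ccl6 and Ccl3 lies Rpl9-ps1, with 23 counts with LPS+LCC-12 and 22 with LPS. Ccl22 and Ccl17 are on chromosome 8, 58.8 kb apart with Cx3cl1 and a pseudogene between them, Ccl22 from 94745590 to 94751699 and Ccl17 from 94810453 to 94812036. Ccl24 is on chromosome 5 from 135569937 to 135573049, next to Ccl26, which had 0 counts with LPS+LCC-12 and 2 with LPS.

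**Figure D5:**
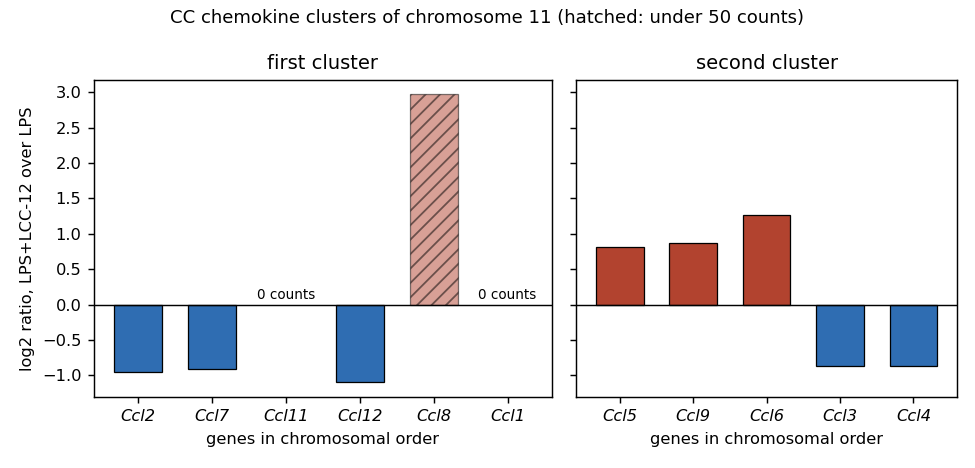
Log2 ratio of LPS+LCC-12 over LPS (y axis) of the CC chemokine genes of both chromosome 11 clusters in chromosomal order (x axis, not to scale), 1 library per group, with Ccl8, under 50 counts, hatched. In the second cluster the bars of Ccl5, Ccl9 and Ccl6 are above 0 and those of Ccl3 and Ccl4 below it.

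Promoters of 5 of the 10 genes (Ccl3, Ccl6, Ccl9, Ccl17 and Ccl22) were matched in the RefSeq table on GRCm38.p6. The bases upstream of the start of Ccl9, Ccl6 and Ccl3 are shown because these neighbours differed in direction. They are on the minus strand, written 5′ to 3′, and capitals mark matches to the motifs searched.
Ccl9 (chr11:83578637-83578886): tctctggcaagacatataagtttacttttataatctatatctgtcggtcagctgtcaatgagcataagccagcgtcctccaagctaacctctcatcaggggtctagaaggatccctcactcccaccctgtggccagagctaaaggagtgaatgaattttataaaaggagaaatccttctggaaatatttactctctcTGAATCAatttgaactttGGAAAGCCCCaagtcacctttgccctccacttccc
Ccl6 (chr11:83593088-83593337): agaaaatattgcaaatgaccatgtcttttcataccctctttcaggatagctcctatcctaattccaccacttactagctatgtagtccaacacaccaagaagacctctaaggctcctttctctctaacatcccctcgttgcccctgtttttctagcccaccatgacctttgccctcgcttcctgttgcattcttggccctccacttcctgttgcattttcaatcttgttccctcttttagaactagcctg
Ccl3 (chr11:83649379-83649628): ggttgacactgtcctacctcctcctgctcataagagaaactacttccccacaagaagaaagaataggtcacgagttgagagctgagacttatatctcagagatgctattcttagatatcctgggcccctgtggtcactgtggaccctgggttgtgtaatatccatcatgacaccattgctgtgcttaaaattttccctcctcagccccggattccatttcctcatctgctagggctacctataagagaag
The window searched ran from 250 bases before to 50 after the start, on both strands, and positions count back from the start. Ccl9 held a match to the kappaB site of NF-kB, first base at -35 on the reverse strand, and a match to the AP-1 motif TGANTCA at -53, a palindrome. Of 32851 promoters in the table, 8.46% held a kappaB match and 7.81% an AP-1 match. Ccl17 held the GAS motif TTCNNNGAA at -99 and the STAT6 motif at -154, found in 8.30% and 6.95% of all promoters. Ccl6, Ccl3 and Ccl22 held none of these, nor the ISRE, the interferon-stimulated response element, which 3.44% of promoters held. A match is a description of the letters, and a window without one says nothing of the factor.

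Of 21 CC chemokine genes, the 10 and a list of 11 others, 11 had 50 or more counts. Beyond the 10 these were Ccl12 and Ccl25. Ccl25, a ligand of Ccr9 known from thymus and gut, had 652 counts with LPS+LCC-12 and 651 with LPS, a log2 ratio of 0.05 (-0.11 to 0.21). The gene overlaps Elavl1 on the opposite strand, which had 4502 counts with LPS+LCC-12 and 4167 with LPS. Ccl1, Ccl11, Ccl19, Ccl20, Ccl21a and Ccl28 had 0 counts in both libraries.

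The receptor genes Ccr1, Ccr2 and Ccr7 were within 2-fold. Of 11 CC chemokine receptor genes, 5 had 50 or more counts, of which 1 was at least 2-fold lower and 0 were higher, where 6.65% and 4.01% of all genes were. Ccr2, the receptor of Ccl2 and Ccl7 and a defining gene of monocyte-derived cells, had 17434 counts with LPS+LCC-12 and 18229 with LPS, a log2 ratio of -0.02 (-0.05 to 0.01). Ccr1 had 11984 counts with LPS+LCC-12 and 18350 with LPS, a log2 ratio of -0.57 (-0.60 to -0.54). Its ligands Ccl6 and Ccl9 stood on the other side of 0. Ccr6 had 60 counts with LPS+LCC-12 and 125 with LPS, a log2 ratio of -1.01 (-1.48 to -0.56). This call for Ccr6 was lost with scaling by total counts. Ccr7, the receptor of cells that move to lymph nodes, had 85 counts with LPS+LCC-12 and 105 with LPS, a log2 ratio of -0.26 (-0.69 to 0.17).

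The receptors of Ccl17, Ccl22 and Ccl24 had few or no counts in the same cells. Ccr4 had 0 counts in both libraries. Ccr3 had 35 counts with LPS+LCC-12 and 33 with LPS. Ccrl2, an atypical receptor induced in activated myeloid cells, had 2423 counts with LPS+LCC-12 and 3815 with LPS, a log2 ratio of -0.61 (-0.68 to -0.53). Ackr2, a scavenger of CC chemokines, had 30 counts with LPS+LCC-12 and 3 with LPS, a log2 ratio of 3.17 (1.68 to 5.72). Ackr4 had 0 counts with LPS+LCC-12 and 9 with LPS.

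The other chemokine families also had genes on both sides. Of 17 CXC, CX3C and XC chemokine genes, 11 had 50 or more counts, with 2 at least 2-fold higher and 5 lower, where 4.01% of all genes were higher and 6.65% lower. Their median log2 ratio was -0.25. The higher genes were Cxcl14 (2.72) and Pf4 (1.36). Among the lower genes Cxcl11 (-2.59) and Cxcl10 (-2.01) are interferon-induced, and Cxcl2 (-1.17) and Cxcl5 (-1.14) attract neutrophils. Cxcl5 had 23 counts with LPS+LCC-12 and 53 with LPS, with an interval of -1.93 to -0.43. Other genes of these kinds, the interferon-induced Cxcl9 (-0.25) and the neutrophil attractant Cxcl1 (-0.12), were within 2-fold.

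Genes of the pathways that induce the members were read from lists. Of 28 genes that carry the LPS signal from Tlr4 to NF-kB and IRF factors, 3 were at least 2-fold lower and 0 higher, with a median log2 ratio of -0.27, where 4.01% of all genes were higher and 6.65% lower. The lower genes were Irf7 (-1.16), a factor of the interferon response, and Tnip1 (-1.12) and Tnfaip3 (-1.12), which restrain NF-kB and are themselves induced by it. Of 13 genes of the interleukin-4 response with 50 or more counts, 4 were higher and 2 lower, with a median of 0.33, where 4.01% of all genes were higher and 6.65% lower. The higher genes were Retnla (2.66), Irf4 (2.23), Mrc1 (1.78) and Klf4 (1.11). The lower genes were Pdcd1lg2 (-1.43) and Chil3 (-1.33), and Stat6, the transcription factor of that response, had a log2 ratio of 0.00. Retnla and Irf4 are also in the list for small peritoneal macrophages below, and Chil3 is also in that for monocytes. The lists are therefore not separate observations.

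Markers of several cell types differed between the same libraries. The labelled cell type was checked first: Ccr2, Cd74 and Adgre1, genes of monocyte-derived and other macrophages, had 17434 to 39897 counts with LPS+LCC-12 and 17850 to 41890 with LPS. Adgre1 is also in the list of general macrophage markers, so this check does not tell small from large peritoneal macrophages. The genes of the check were chosen after their values were seen. In the list for small peritoneal macrophages, Cx3cr1 had 1074 counts with LPS+LCC-12 and 219 with LPS, and Cd226 had 1471 and 242. The neutrophil gene S100a9 had 70816 counts with LPS+LCC-12 and 195432 with LPS. The check therefore does not show that the sorted cells were of the labelled type alone. Beside the lists that follow, 4.01% of all genes were higher and 6.65% lower. In the list for small peritoneal macrophages, which holds genes of monocyte-derived cells, 8 of 10 were at least 2-fold higher. The list summed to 1633 CPM with LPS+LCC-12 and 967 CPM with LPS. Of these 8, H2-Ab1 (1.04), Cd74 (1.025) and H2-Aa (1.02) were just past 2-fold, with intervals that begin below it. Of 10 markers of large peritoneal macrophages 7 were higher, with sums of 1358 CPM with LPS+LCC-12 and 509 CPM with LPS. The largest log2 ratios among them were those of Cd5l (4.47) and Timd4 (4.03), and Icam2 (1.05) was just past 2-fold. Gata6 (0.49), Selp (-0.24) and Cd9 (-0.47) of the same list were within 2-fold, Selp and Cd9 on the lower side. Of 8 general macrophage markers none was past 2-fold, with sums of 8581 CPM with LPS+LCC-12 and 7351 CPM with LPS. Neutrophils are known to make Ccl3, Ccl4 and Ccl6. Of 10 neutrophil markers 8 were lower, with sums of 3126 CPM with LPS+LCC-12 and 8574 CPM with LPS, and none of them was at 0. Ccl6 was higher and Ccl3 and Ccl4 were lower in these same libraries.

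Of 8 monocyte markers 5 were lower and 1 higher, where 6.65% and 4.01% of all genes were. Their summed level was 13719 CPM with LPS+LCC-12 and 8038 CPM with LPS, of which Fn1, a fibronectin that macrophages also make, was 10656 CPM with LPS+LCC-12 and 3114 CPM with LPS. Of 6 mast cell markers with 50 or more counts 5 were lower, and all 7 summed to 67.7 CPM with LPS+LCC-12 and 213 CPM with LPS, of which Hdc was 62.3 CPM with LPS+LCC-12 and 197 CPM with LPS. Dendritic cells are a known source of Ccl17 and Ccl22. Of 8 dendritic cell markers 3 had 50 or more counts and none was past 2-fold, with sums of 5.25 CPM with LPS+LCC-12 and 6.33 CPM with LPS. Of 6 markers of eosinophils, the cells that Ccl24 attracts, 2 had 50 or more counts and none was past 2-fold, with sums of 3.78 CPM with LPS+LCC-12 and 3.70 CPM with LPS. Among them Siglecf had 57 counts with LPS+LCC-12 and 32 with LPS, and Il5ra had 91 with LPS+LCC-12 and 119 with LPS, while the granule genes Epx and Prg2 had 0 counts in both libraries. Mesothelial markers summed to 1.32 CPM with LPS+LCC-12 and 7.71 CPM with LPS, and fibroblast markers to 3.64 CPM with LPS+LCC-12 and 12.4 CPM with LPS. Of 6 B cell markers none was past 2-fold, with sums of 186 CPM with LPS+LCC-12 and 161 CPM with LPS. Endothelial markers summed to 62.0 CPM with LPS+LCC-12 and 129 CPM with LPS, most of it from Pecam1, which leukocytes also express. The part of these cell types in the chemokine differences was not tested.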

How the data were processed

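The authors deposited unnormalized counts for each gene, 1 column a library. Reads were aligned with STAR to mm10, per the submitters' processing notes. The counter, its strand setting, the annotation and the aligner's version are not stated in the labels or the file. Stranded libraries were made from 10 ng of total RNA each, with ribosomal depletion and 12 PCR cycles, and read as pairs of 100 bp, per the labels' protocols.

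Columns were tied to groups by library codes in the labels. Symbols, coordinates and exon lengths came from GENCODE M21 (GRCm38); 55394 of 55487 IDs matched. Scaling used TMM factors of edgeR 4.0.16 under R 4.3.3, and 0.5 counts were added before the ratio. Intervals are exact (Clopper-Pearson on the split of the counts, Poisson for levels) and cover counting error only. They take counts as independent, which PCR copies are not, so they can be too narrow. The calculation was tested on simulated data. Alternatives were 4 other scalings (DESeq2 1.42.0 among them), other count minimums, added counts and size limits, and thinning of the deeper library.

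All 10 members are named, with every other CC chemokine or receptor of 50 or more counts and up to 4 members past 2-fold per list; other genes that the text names were chosen after their values were seen. Members and lists were chosen with earlier results of these data known. The planned protein comparison was not run; coding sequences were compared in its place. A receptor gene and a coding sequence are not reported here.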

Additional observations from a re-analysis of the deposited data

How the results depend on the processing

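The direction of the 10 CC chemokines was the same under all 4 other scalings, 5 added counts and thinning. A scaling shifts all genes by nearly the same amount, far less than any of these ratios, and added counts pull ratios towards 0. Those settings could therefore not have changed a direction. Ccl17 ran from 0.93 to 1.68 and Ccl8 from 2.33 to 3.03, the lowest of each with 5 added counts. Ccl24 ran from 2.58 to 2.68, Ccl6 from 1.23 to 1.32 and Ccl2 from -0.98 to -0.89 on the log2 scale, and the scalings moved the median of all genes by -0.03 to 0.06. Of 78 values of single genes under these settings (these 10 with Ccl8, Ccl12 and Ccl25), 66 stayed inside their counting interval and 12 moved beyond it, and 0 changed direction. Counts of genes depended on the limits. At 1.5-fold, 5 members were higher and 4 lower, as against 3 and 0. Of the 21 CC chemokine genes, 3 were higher and 1 lower by the 2-fold rule. The higher count was 5 with count minimums of 10 and 1 and at 1.5-fold. The lower count was 2 with a minimum of 1, 5 at 1.5-fold, and 0 at 3-fold or with the whole interval beyond 2-fold. Of the receptors, 1 was higher with minimums of 10 and 1. The lower count, 1 by the 2-fold rule, was 2 with a minimum of 1. It was 0 with scaling by total counts, with totals that leave out mitochondrial genes and the 100 most abundant genes, with a minimum of 200, with 5 added counts, at 3-fold and with the whole interval beyond 2-fold. Over all genes, 540 were higher and 896 lower. These became 1462 and 2387 with a minimum of 10, 298 and 438 with 200, and 4143 and 6439 with 1. They became 1304 and 1794 at 1.5-fold, 195 and 340 at 3-fold, and 299 and 521 with the whole interval beyond 2-fold. No paired analysis was possible because each group was 1 library. Depth limits Ccl17, Ccl8 and Ackr2, and variation between mice was not measured.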

Other observations

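Of 8 genes whose products cut or bind chemokines, 6 had 50 or more counts, with 1 at least 2-fold higher, 1 lower and a median log2 ratio of -0.15, where 4.01% of all genes were higher and 6.65% lower. Sdc1, a heparan sulfate proteoglycan that holds chemokines at the cell surface, had 573 counts with LPS+LCC-12 and 82 with LPS, a log2 ratio of 2.84 (2.51 to 3.20). Mmp8, a neutrophil collagenase that also cuts chemokines, had 15924 counts with LPS+LCC-12 and 81324 with LPS, a log2 ratio of -2.31 (-2.33 to -2.28). The remaining 4 genes, Sdc4, Mmp9, Mmp14 and Dpp4, were within 2-fold. Ccr1l1, a relative of Ccr1, had 15 counts with LPS+LCC-12 and 2 with LPS, a log2 ratio of 2.67 (0.85 to 6.12).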
